A study of Rattus norvegicus with 4 samples.

Results

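The comparison between neural stem cells of the olfactory bulb and of the hippocampus rests on 2 of the 4 arrays of this rat series, OB NSC and HPC NSC. These arrays were chosen by their titles and by lying on 1 slide, per the file headers. The study measured gene expression in stem cells from both brain regions and in the neurons derived from each in work on insulin production by adult neural stem cells. The first group, HPC NSC, is hippocampal neural stem cells and the second, OB NSC, is olfactory bulb neural stem cells, both from the strain labelled fisher 344 rat. The HPC neu and OB Neu groups are the neurons made from these stem cells. For each group, total RNA of 3 separate preparations was mixed and put on 1 Cy3-labelled Agilent array, so an array holds the average of 3 preparations and no spread between them. No genotype, treatment, age or culture condition is given in the labels. Of 8927 genes with a named probe, 6029 had a signal well above background on one or both stem cell arrays and were compared, and 2898 had it on neither.

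Neural stem cells divide, renew themselves and give rise to neurons, astrocytes and oligodendrocytes. In the adult hippocampus they lie in the dentate gyrus and make excitatory granule cells, while neuroblasts bound for the olfactory bulb become inhibitory interneurons there, and cells with stem cell properties can also be grown from the bulb itself. Several gene programmes that respond to the surroundings of a cell appear below. Interferon-induced genes are switched on by the STAT and IRF transcription factors after type I interferon or viral nucleic acid is sensed, and they hold back viral replication. The transcription factor Nrf2 switches on glutathione transferases and quinone reductases when cells meet reactive electrophiles or oxidants. Atf4 switches on amino acid synthesis and transport genes when amino acids are short or unfolded proteins build up.

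Differences are olfactory bulb minus hippocampus on the log2 scale. Signals are given in units in which the 75th percentile of each array is 100, and they compare 1 gene between arrays, not 1 gene with another. A gene was called at 2-fold or more. Of the 6029 genes, 5663 were well above background on both arrays. For the other 366 the side not above background was set to the lowest signal well above background on that array, or to the gene's own signal if higher. Such differences are called bounds, and "at least" marks folds among them. Where the gene's own signal was used, the fold is a plain difference and not a strict minimum. Since each group has a single array, no difference could be tested, and no value below has a check by replicate cultures. The scanner software's own error for a log2 difference had a median of 0.20 and a largest value of 0.45 over the 5663 genes measured on both arrays. All 552 called genes among them differed by more than 2 of their own errors. Across 162 probes printed several times, the SD of the difference between spots had a median of 0.13. These errors cover spots and not cell cultures.

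The labels of both stem cell arrays were set against stem cell markers. Of 22 neural stem and progenitor markers on the array, 21 were well above background on both, among them Nes, which encodes the intermediate filament nestin (6553 in hippocampal and 5128 in bulb cells), Vim (17717 and 13352) and Fabp7, a radial glia protein (1176 and 2132). The remaining one, Prom1, was not above background on either. Gfap and Aqp4, markers of mature astrocytes, were not above background on either array, and neither were the microglial genes Cx3cr1, Aif1 and Itgam, the endothelial gene Pecam1 or the fibroblast genes Col3a1, Dcn and Pdgfrb. Markers of dividing cells such as Cdk1 (10819 and 9587) were well above background on both. Sox2 had no named probe. On both arrays 0 spots were saturated, and 60.2% of the probes on the hippocampal and 63.8% on the bulb array were well above background.

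In bulb cells 251 genes were higher, 4.16% of those compared, and 422 were lower, 7.0%. The lower side held the larger differences. At 4-fold or more 41 genes were higher and 57 lower, at 8-fold or more 2 and 29, and at 16-fold or more 0 and 11. The balance of higher and lower depended on which probes were counted and on the scaling between arrays. Over all 23971 probes well above background on both arrays, named or not, it was reversed, with 2352 higher and 1042 lower. Of these probes 16891 had no gene symbol, and the gene counts here cover only the named ones. The median over all genes lay at -0.43, and it came to 0.43 when arrays were scaled on their spike-in controls. Higher genes made up 37.3% of those called, against 94.1% with spike-in scaling, 54.4% with the 75th percentile of probes above background on both arrays and 77.6% after centring on the median of the genes compared. Under every one of 6 scalings 235 genes were higher (3.9%) and 71 were lower (1.18%). Spike-in scaling, the 75th percentile of probes above background on both arrays and centring each moved all genes upward by a constant. All 251 higher calls therefore had to stay under these, and lower calls could only drop out. Median scaling kept 244 of the 251 and quantile normalization 239. Holding under every scaling is thus a weak check of a higher call. For lower calls it was set by spike-in scaling, which alone left the same 71. That scaling moved measured log2 differences up by 0.86, so the check asked for a larger difference and not for agreement of 6 independent scalings. Normexp background correction with an offset (normexp below) gave 133 higher and 208 lower genes. List medians are also given relative to the median of all genes, and list counts are to be read against the 4.16% and 7.0% of all genes called higher and lower. The medians that lay below 0 became positive with spike-in scaling, except those of the interferon, antigen presentation and pericyte lists.

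**Figure D1:**
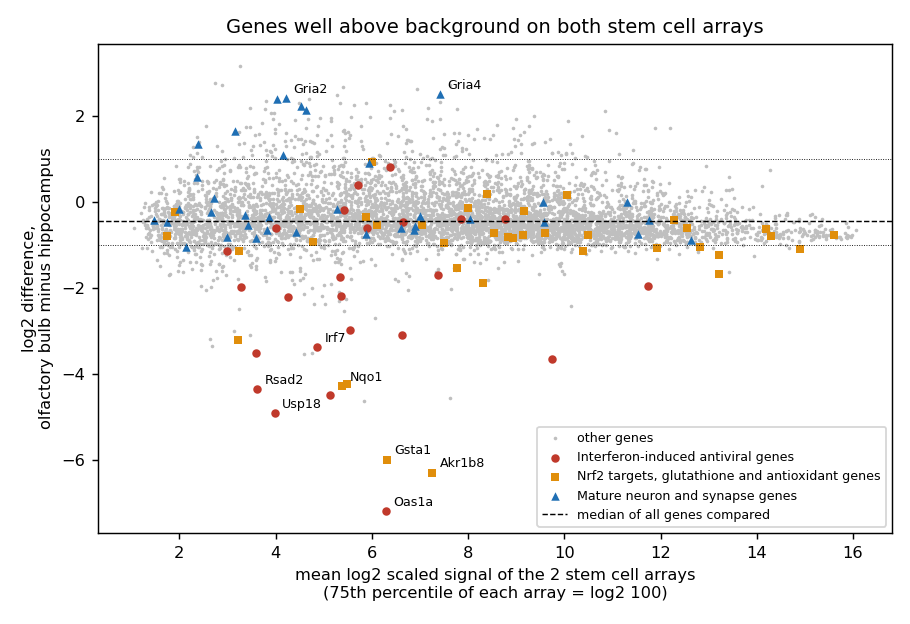
The log2 difference between bulb and hippocampal stem cells (vertical axis) is plotted against the mean log2 scaled signal of both arrays (horizontal axis) for the genes well above background on both; each point is 1 gene, the dashed line is the median of all genes at -0.43 and the dotted lines mark 2-fold. Interferon-induced genes (circles) and glutathione and antioxidant genes (squares) make up most of the lowest points, down to -7.19 for Oas1a, while AMPA receptor genes among the neuronal genes (triangles) lie near the top, at 2.52 for Gria4.

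**Figure D2:**
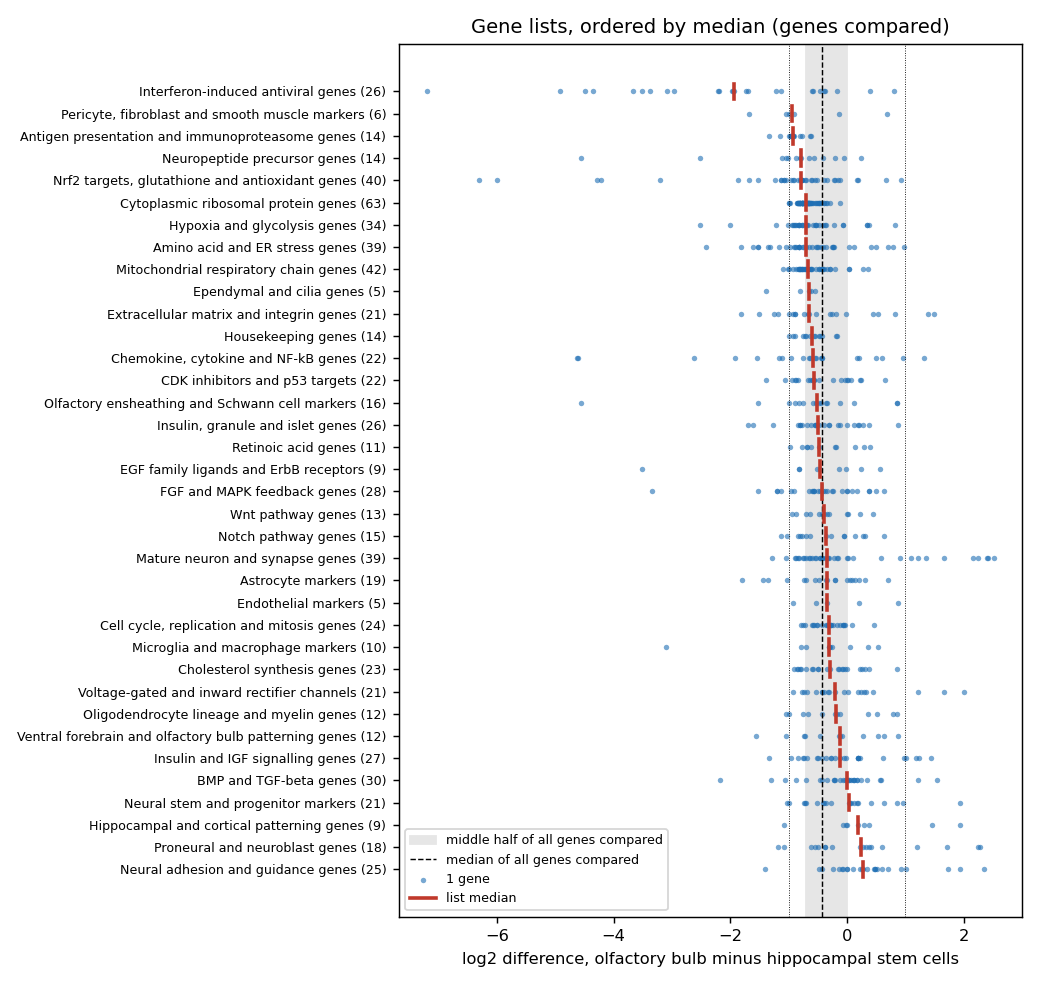
For each of 36 gene lists, every compared gene is a blue point at its log2 difference between bulb and hippocampal stem cells, the red bar is the list median, the grey band spans the quartiles of all genes and the dashed line their median of -0.43. The interferon list has the lowest median, -1.94, and the neural adhesion list the highest, 0.27.

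The promoters of interferon-induced genes are shown first because these genes gave the largest differences, and the letters the interferon factors recognise can be read in them. Each line holds the 160 bases before the gene start in the RefSeq annotation of GRCr8, written along the gene's strand, and capitals mark matches to GAAANNGAA on either strand, the core of the interferon-stimulated response element. Oas1a lies at chr12:41330306-41330465 on the plus strand, Oas1i at chr12:41285066-41285225 on the plus strand and Oas1b at chr12:41395853-41396012 on the minus strand. Rsad2 is at chr6:48788121-48788280 (minus), Irf7 at chr1:205800024-205800183 (minus), Gbp2 at chr2:234005567-234005726 (plus) and Bst2 at chr16:18254968-18255127 (minus).
Oas1a: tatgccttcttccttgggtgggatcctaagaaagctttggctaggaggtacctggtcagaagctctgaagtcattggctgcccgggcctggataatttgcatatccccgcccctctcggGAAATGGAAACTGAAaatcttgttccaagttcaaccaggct
Oas1i: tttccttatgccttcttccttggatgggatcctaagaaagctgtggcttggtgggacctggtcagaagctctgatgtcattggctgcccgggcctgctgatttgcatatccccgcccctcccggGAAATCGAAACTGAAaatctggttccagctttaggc
Oas1b: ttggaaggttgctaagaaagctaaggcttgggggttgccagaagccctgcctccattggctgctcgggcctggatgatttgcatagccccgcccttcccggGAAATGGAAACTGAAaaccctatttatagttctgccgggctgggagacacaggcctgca
Rsad2: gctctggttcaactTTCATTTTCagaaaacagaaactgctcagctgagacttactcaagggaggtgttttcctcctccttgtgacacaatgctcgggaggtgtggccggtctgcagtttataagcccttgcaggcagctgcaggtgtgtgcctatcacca
Irf7: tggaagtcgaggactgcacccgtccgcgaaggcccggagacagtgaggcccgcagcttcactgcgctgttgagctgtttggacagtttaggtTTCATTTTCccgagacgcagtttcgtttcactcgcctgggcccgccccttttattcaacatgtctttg
Gbp2: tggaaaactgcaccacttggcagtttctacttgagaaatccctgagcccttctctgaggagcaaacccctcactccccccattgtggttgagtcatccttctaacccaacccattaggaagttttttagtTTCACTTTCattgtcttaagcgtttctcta
Bst2: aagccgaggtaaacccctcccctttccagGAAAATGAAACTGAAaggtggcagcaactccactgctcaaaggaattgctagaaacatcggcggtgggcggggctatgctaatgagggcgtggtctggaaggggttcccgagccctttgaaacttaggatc

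In the Oas1 genes and in Bst2, 2 overlapping matches run together into a single block. RefSeq promoters, which reach a little way past the start, were at hand for 20 of the 26 interferon-induced genes compared. The letters occur in 13 of these 20 (65%), in 11 of the 15 genes that were lower in bulb cells (73.3%) and in 2 of the 5 that were not (40%). Among all 4922 compared genes with a promoter, 7.54% hold them. No match was present in these windows for Oasl, Mx1, Irf9 or Ifi35, which were lower as well. A match says only that the letters are there.

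Interferon-induced antiviral genes were lower in bulb stem cells than in hippocampal stem cells as a group. Of 26 compared, 18 were lower by 2-fold or more and 0 higher, beside 7.0% and 4.16% of all genes, and 14 of these were lower under every scaling and 15 of the list with normexp. The list median was -1.94, which is 1.51 below that of all genes (21 of 26 lay under it). The direction of the median held under all the scalings tried, with -1.08 under spike-in scaling. This list was drawn up with earlier results of these arrays known.

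The oligoadenylate synthetase genes, named for enzymes that sense double-stranded RNA, differed most. Oas1a had a signal of 950.1 in hippocampal stem cells, 6.50 in bulb stem cells, 2012 in hippocampal neurons and 538 in bulb neurons. It was 146-fold lower in bulb than in hippocampal stem cells, the largest difference of any measured gene, with a scanner error of 0.22 on a log2 difference of -7.19. The bulb stem cell array therefore stood far below the other 3 arrays. Oas1i, a neighbour of Oas1a in the genome, was at 166, 7.41, 349 and 96.5 in the same order and was 22.4-fold lower in bulb stem cells. Oas1b, the third gene of the cluster, went from 19.3 to 4.92 (3.92-fold lower). These copies are nearly alike in sequence and a probe may bind the RNA of a neighbour. The related genes Oasl (40.8 and 3.56) and Oasl2 (130.3 and 16.6) were lower by 11.5-fold and 7.83-fold.

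Genes whose proteins act on viral particles and replication moved the same way. Rsad2, which encodes viperin, a radical SAM enzyme that yields a chain-terminating nucleotide, had signals of 55.6 and 2.72 in hippocampal and bulb stem cells and was 20.5-fold lower. These values are those of its brightest probe, at a log2 difference of -4.35, and the mean over its probes gave -2.33. Mx2, a dynamin-like GTPase, fell from 41.1 to 8.91, 4.61-fold lower, and its relative Mx1 was not well above background in bulb stem cells and at least 3.81-fold lower. Bst2, or tetherin, which holds budding virus at the cell surface, was 4.58-fold lower (88.1 and 19.3). Gbp2, an interferon-inducible GTPase, was at 288 and 33.9, 8.49-fold lower. Ifi27l2b and Ifi27, small proteins of mitochondria, were 12.6-fold and 3.87-fold lower. Only Mx1 and Ifi44l of the lower genes had a bulb signal that was not well above background.

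Regulators of the pathway split. Irf7, the transcription factor that amplifies interferon production, had signals of 93.8 and 9.03 and was 10.4-fold lower in bulb stem cells. Usp18, a protease that removes Isg15 and dampens interferon receptor signalling, went from 87.3 to 2.89, 30.2-fold lower. Irf9, the DNA-binding part of the complex that interferon receptors activate, was 3.32-fold lower (73.4 and 22.1). Its partner Stat2 did not reach 2-fold, at 118 and 86.1, 1.37-fold lower, which is close to the median of all genes. Irf1 and Trim25 also stayed under 2-fold. Eif2ak2, the RNA-activated kinase PKR, went the other way, at 62.9 and 110.2, and so did Ifit2, at 45.7 and 60.3; neither reached 2-fold.

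**Figure D3:**
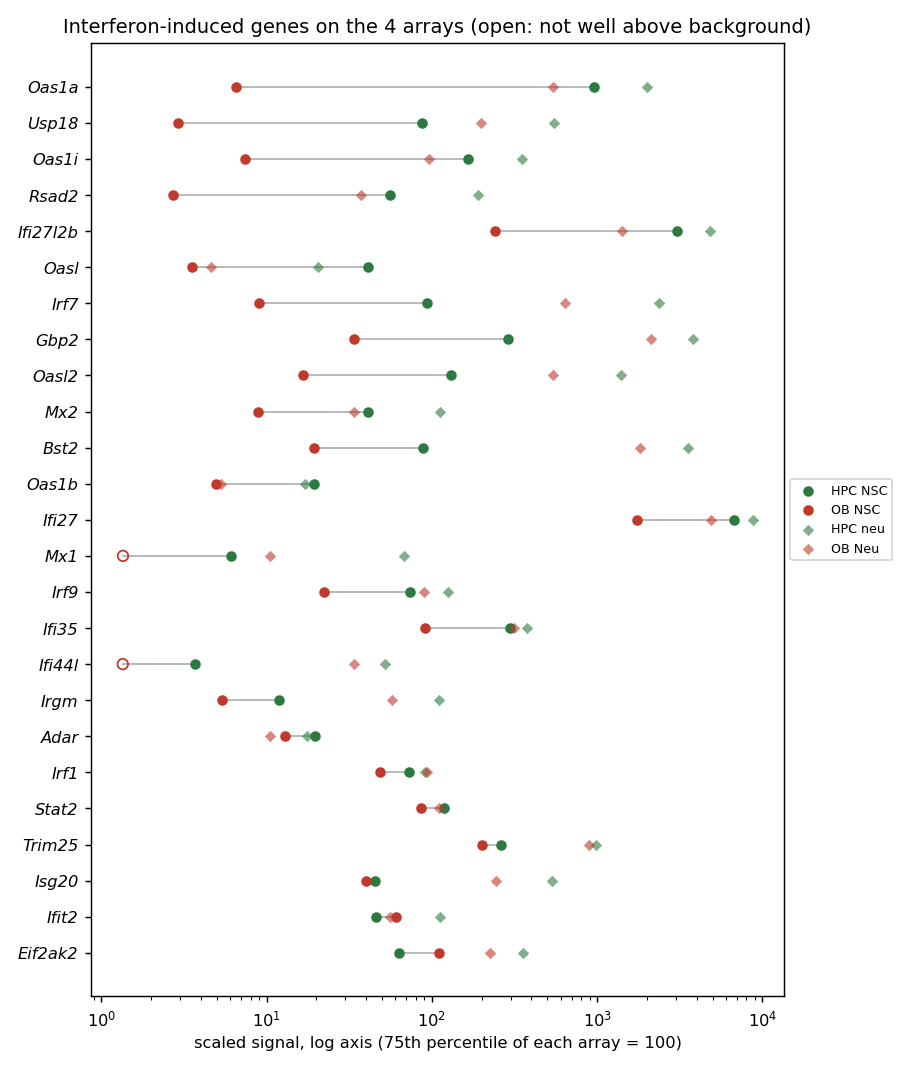
Scaled signals (log axis, 75th percentile of each array = 100) of 25 compared interferon-induced genes on the 4 arrays, with hippocampal (green) and bulb (red) stem cells as circles joined by a line and the derived neurons as diamonds; open circles were not well above background. Bulb stem cells lie lowest of the 4 arrays for Oas1a, at 6.50, and for most of the genes at the top, while for Stat2 and Trim25 both stem cell circles lie close together.

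Antigen presentation genes, which share regulators with the interferon genes, gave few calls. Of 14 compared, 2 were lower by 2-fold or more (14.3%, beside 7.0% of all genes) and 0 higher, neither of the 2 under every scaling. All 14 lay below the median of all genes, with a list median of -0.93, which is 0.50 below it, and -0.07 with spike-in scaling. The proteasome subunit Psmb10 (6171 and 2452) was 2.52-fold lower and the proteasome activator Psme2 (3826 and 1730.4) 2.21-fold lower. The peptide transporter gene Tap1 was at 269 and 139 and the class I light chain B2m at 8318 and 4352, both under 2-fold. The class II genes Cd74, Ciita, RT1-Ba and RT1-Da were not well above background on either array.

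Chemokine genes were lower at their top end. Of 22 chemokine, cytokine and NF-kB genes compared, 7 were lower and 1 was higher, 4 and 1 of them under every scaling. Cxcl10, a chemokine that interferon induces and that attracts T cells, had signals of 286 and 11.6 and was 24.8-fold lower in bulb stem cells. Ccl5 was at 38.9 in hippocampal cells and not well above background in bulb cells, at least 24.3-fold lower, and Ccl20 was likewise at least 6.15-fold lower. Ccl2, which attracts monocytes, was 3.76-fold lower (68.7 and 18.3). The NF-kB subunit Nfkb2 (282 and 96.6) and the chemokine receptor Cxcr4 (24.7 and 10.97) were 2.92-fold and 2.26-fold lower, the second not with normexp (-0.95), while the list median of -0.59 lay only 0.16 below that of all genes. Tnfrsf11b, the decoy receptor osteoprotegerin, was 2.48-fold higher at low signals of 4.37 and 10.8, and its difference turned to -0.03 with normexp background correction. The cytokine genes Il6, Il1b and Tnf were not well above background on either array.

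Genes that handle electrophiles and oxidants formed the second group with very large differences. Of 40 Nrf2 targets, glutathione and antioxidant genes compared, 14 were lower and 0 higher in bulb cells, and 6 were lower under every scaling. The list median of -0.79 lay 0.36 below that of all genes, with 30 of 40 under it, and it became 0.07 with spike-in scaling. The largest differences were those of a few enzymes. Akr1b8, an aldo-keto reductase, had signals of 1358 and 17.2 in hippocampal and bulb stem cells and 8345 and 2429 in the neurons made from them. It was 78.9-fold lower in bulb than in hippocampal stem cells, and on the neuron arrays the bulb signal was again the lower one. Gsta1, an alpha class glutathione transferase, was at 639 and 10.002 in stem cells and at 5652 and 6155 in neurons. It was 63.9-fold lower in bulb stem cells, while the neuron arrays differed little. Gsta3 followed the same pattern, at 194, 10.4, 1287 and 1325, 18.7-fold lower in bulb stem cells. These transferases are close copies of one another and their probes may bind a relative.

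Nqo1, the quinone reductase used as a read-out of Nrf2, had signals of 184 and 9.44 and was 19.5-fold lower in bulb stem cells. Osgin1, an oxidative stress-induced growth inhibitor, was 9.27-fold lower (28.4 and 3.06). Hmox1, which breaks down haem, was at 604 and 165, 3.65-fold lower, and the ferritin genes Fth1 and Ftl1, which store the freed iron, were 3.19-fold and 2.13-fold lower. The aldehyde dehydrogenase Aldh3a1 (372 and 129) was 2.88-fold lower. The ferritin and Aldh3a1 calls did not hold with spike-in scaling. Nfe2l2, the gene of Nrf2 itself, was at 616 and 531, and Keap1, its inhibitor, at 478 and 292. Other common Nrf2 targets, Txnrd1 (999 and 606), Gclc (24.1 and 21.6) and Prdx1 (5722 and 4327), stayed under 2-fold, and Cat, which encodes catalase, had the highest value of the list at 46.6 and 88.8. The letters TGACNNNGC, the core of the antioxidant response element, were found on either strand in 10 of the 32 promoters of this list at hand (31.2%), beside 15.1% of all compared genes, and in 3 of the 9 of its lower genes.

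Among amino acid and ER stress genes the calls were fewer and smaller. Of 39 compared, 9 were lower (23.1%, beside 7.0% of all genes), 0 were higher and 30 did not reach 2-fold, and only Trib3 was lower under every scaling. Trib3, a pseudokinase induced by Atf4 and Ddit3, had signals of 2611 and 489 in hippocampal and bulb stem cells and was 5.34-fold lower. Nupr1, a small stress-induced chromatin protein, was at 176 and 49.7 (3.54-fold lower), and the transcription factor gene Atf5 at 19342 and 6293 (3.07-fold lower). Ddit3, which encodes the ER stress factor CHOP, was 2.56-fold lower, Cth, which makes cysteine, 2.89-fold lower and Slc3a2, the shared subunit of amino acid exchangers, 2.25-fold lower. Chaperones of the ER did not follow: Hspa5 was at 6434 and 4833, and Hsp90b1 at 2792 and 3709.6 was on the higher side. Atf4 itself was at 20937 and 12436, under 2-fold. The list median of -0.70 lay 0.27 below that of all genes and was 0.17 with spike-in scaling.

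Of 34 hypoxia and glycolysis genes 4 were lower (11.8%, not far from the 7.0% of all genes) and 0 higher, and Adm and Ndrg1 were lower under every scaling. The list median of -0.70 lay 0.27 below that of all genes and was 0.16 with spike-in scaling. Adm, the vasodilator peptide adrenomedullin, was at 103 and 18.01, 5.74-fold lower in bulb stem cells. Ndrg1, a gene induced by low oxygen and by differentiation, was at 403 and 99.8, 4.04-fold lower. Of the glycolytic enzymes, Aldoa was at 8119 and 3506 (2.32-fold lower) and the hexokinase gene Hk2 at 20.4 and 10.1 (2.02-fold lower), and both calls were lost with spike-in scaling and with normexp. Eno1 at 22142 and 12129 and Ldha at 5768 and 3273 did not reach 2-fold. Hif1a and Vegfa did not reach 2-fold, at 1327 and 1713 and at 30.8 and 29.3.

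Growth factor signalling genes differed at single members. Areg, the EGF receptor ligand amphiregulin, had signals of 91.8 and 8.01 in hippocampal and bulb stem cells and 1002 and 97.4 in the derived neurons. It was 11.5-fold lower in bulb stem cells, and the bulb signal was the lower one in neurons too. The other compared ligands and receptors of the family, among them Hbegf, Tgfa, Egf, Egfr and Erbb2, stayed under 2-fold. Fosl1, an AP-1 factor induced by MAP kinase signalling, was at 20.4 and 2.003, 10.2-fold lower, and its relatives Junb and Fosl2 were 2.31-fold and 2.20-fold lower, Fosl2 not with normexp (-0.59), while Fos (116 and 150.4) and Jun (2197 and 1546) were not. Of 28 FGF and MAPK feedback genes, 5 were lower and 0 higher, and the list median lay within 0.01 of that of all genes. Gdf15, a stress-induced member of the TGF-beta family, was 4.53-fold lower (66.1 and 14.6), and the activin receptor gene Acvr2a was 2.92-fold higher (12.3 and 35.99), a log2 difference of 1.55 that came to 0.64 with normexp and 0.88 over the mean of its probes.

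Secreted peptides and lysosomal or lipid enzymes completed the lower end. Of 14 neuropeptide precursor genes compared 5 were lower (35.7%, beside 7.0% of all genes) and 0 higher, of which Npy and Adm were lower under every scaling (1.18% of all genes), and 3 were lower with normexp. Npy, which encodes neuropeptide Y, had signals of 955 in hippocampal stem cells, 40.7 in bulb stem cells, 2932 in hippocampal neurons and 7248 in bulb neurons, and was 23.5-fold lower in bulb stem cells. Bulb cells were thus the lower of the stem cell pair and the higher of the neuron pair. Ctss, the lysosomal protease cathepsin S of antigen-presenting cells, was at 32.4 and 3.78, 8.56-fold lower. Pla2g7, which degrades platelet-activating factor, was at 18.8 and 2.08, 9.05-fold lower, and Tmco4, whose function is little known, at 82.2 and 7.09, 11.6-fold lower. Ass1, which makes argininosuccinate on the way to arginine, and Gpnmb, a lysosomal membrane glycoprotein, were not well above background in bulb cells and were at least 10.2-fold and 8.36-fold lower. The olfactory receptor genes Or5b104, Or7d11c, Or1f31 and Or1o1 and the trace amine receptor gene Taar8b were also at least 6.81-fold lower, at hippocampal signals between 10.9 and 20.5; they belong to families of near-identical genes.

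On the higher side, several genes of neuronal excitability were among the leading genes. Among 39 mature neuron and synapse genes compared, 9 were higher (23.1%), all 9 under every scaling, and 2 were lower (5.13%), beside 4.16% and 7.0% of all genes. With normexp 5 were higher and 0 lower. Of the AMPA receptor subunits, which carry fast excitatory currents, 3 were among the 20 highest measured genes. Gria4 had signals of 70.9, 406, 48.9 and 56.03 in hippocampal stem cells, bulb stem cells, hippocampal neurons and bulb neurons, and bulb stem cells stood above the other 3 arrays. It was 5.73-fold higher in bulb than in hippocampal stem cells. Gria2, the subunit that limits calcium entry, was at 8.03, 42.9, 14.3 and 10.6, 5.34-fold higher. Gria3 was at 7.12, 37.6, 75.5 and 60.1, 5.28-fold higher, and here both neuron arrays were above both stem cell arrays. The fourth subunit gene, Gria1, was not well above background on either stem cell array, and the NMDA receptor gene Grin1 was at 17.7 and 11.4, under 2-fold.

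Other neuronal genes were mixed. Nlgn1, the postsynaptic partner of neurexins, was at 11.8 and 52.6, 4.46-fold higher, Snap25 and Syt1, which drive vesicle fusion, were 2.55-fold and 2.13-fold higher at low signals of 3.29 and 8.37 and of 12.2 and 25.9, and the sodium channel gene Scn3a was 3.17-fold higher (5.02 and 15.9). The calls of Snap25 and Scn3a were lost with normexp, at 0.12 and 0.56. Syn1 (10.6 and 6.01), Syp (16.5 and 12.9), Mapt (4029 and 3001) and Uchl1 (8629 and 4709) were on the lower side without reaching 2-fold. Nefl, the light neurofilament gene, was at least 2.43-fold lower, a call lost with spike-in scaling and with normexp. The list median of -0.35 was 0.08 above that of all genes. Cacna2d1, an auxiliary calcium channel subunit, was at 331 and 1332, 4.02-fold higher, the largest difference of 21 channel genes compared, of which 3 were higher (14.3%) and 0 lower, and 1 was higher with normexp.

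Neuroblast genes also diverged from one another. Of 18 proneural and neuroblast genes, 4 were higher (22.2%, beside 4.16% of all genes), all under every scaling (3.9% of all genes), and 2 lower (11.1%, beside 7.0%). Dcx, the microtubule protein of migrating neuroblasts, had signals of 22.6 and 109 in hippocampal and bulb stem cells, 4.84-fold higher, and Map2, a dendritic microtubule protein, was at 10.6 and 50.1, 4.72-fold higher. The RNA-binding proteins Elavl4 (162 and 528) and Elavl3 (156 and 356), which appear as neurons are born, were 3.26-fold and 2.28-fold higher. Tubb3, the neuronal beta tubulin, went the other way, at 509 and 225, 2.27-fold lower, a call that was lost with spike-in scaling. Stmn1, Sox11 and Dlx5 stayed under 2-fold, and Stmn2 was not well above background on either array. The list median of 0.25 lay 0.68 above that of all genes, with 13 of 18 above it.

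Cell contact genes had the highest list median, 0.27, which is 0.70 above that of all genes, and 23 of 25 lay above it. By 2-fold or more 4 of these neural adhesion and guidance genes were higher (16%, beside 4.16% of all genes), 3 under every scaling, and 1 was lower (4.0%, beside 7.0%). Mdga2, an anchored immunoglobulin protein that binds neuroligins, had signals of 6.20, 31.5, 9.59 and 65.2 in hippocampal stem cells, bulb stem cells, hippocampal neurons and bulb neurons. It was 5.09-fold higher in bulb stem cells, and bulb was above hippocampus in the neuron pair as well. Opcml, an immunoglobulin adhesion protein of the IgLON family, was at 7.90, 30.2, 14.4 and 2.13, 3.82-fold higher in bulb stem cells and lower in bulb neurons. Sema3a, a repellent guidance cue, was 3.32-fold higher (13.6 and 45.1), and the netrin receptor gene Unc5c 2.02-fold higher. Cntn2, an axonal adhesion protein, was not well above background in bulb cells and at least 2.66-fold lower, a call lost with normexp (-0.87) and with spike-in scaling. Alcam, named among the 20 leading genes rather than in this list, was 4.92-fold higher at its brighter probe (18.4 and 90.3), while its other probe differed by 0.87.

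**Figure D4:**
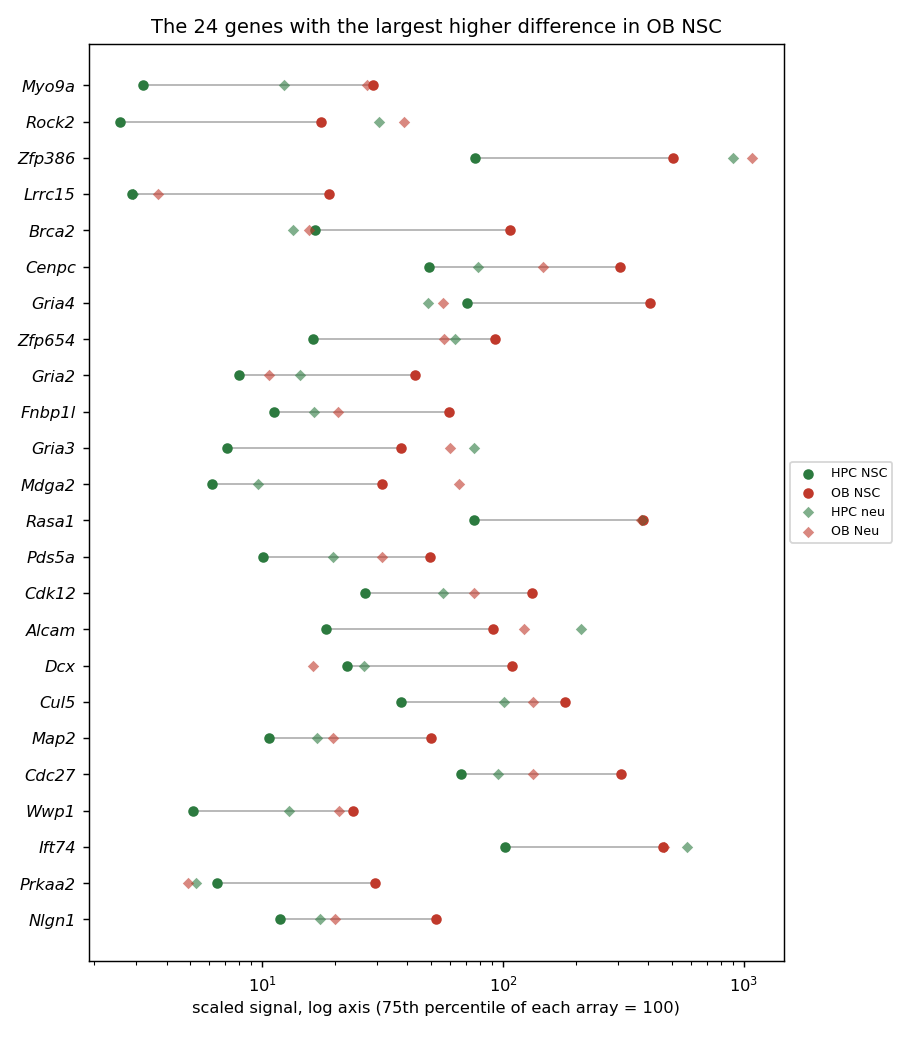
Scaled signals (log axis, 75th percentile of each array = 100) on the 4 arrays of the 24 measured genes with the largest higher difference in bulb stem cells, with stem cells as circles joined by a line, neurons as diamonds, hippocampus in green and bulb in red. For Gria4, Brca2 and Dcx the bulb stem cell circle lies above the other 3 arrays, at 406, 106 and 109, whereas for Zfp386 both neuron arrays lie above it.

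The remaining leading higher genes came from several other functions. Myo9a, an unconventional myosin, had the largest measured difference on the higher side, with signals of 3.19 and 28.7, 8.98-fold higher. Its hippocampal signal was low, and its log2 difference of 3.17 came to 1.33 with normexp. Rock2, a kinase that acts on the actin cytoskeleton, was at 2.57 and 17.5, 6.81-fold higher. Its hippocampal signal lay near the lowest signal well above background of 2.35, and its log2 difference of 2.77 came to 0.93 with normexp and 1.70 over the mean of its probes. Fnbp1l, which couples membrane curvature to actin, was 5.33-fold higher (11.1 and 59.4), and Rasa1, which turns off Ras, 5.06-fold higher (75.4 and 381). Genes of chromosomes and their repair were among them: Brca2, needed for homologous recombination, was at 16.6 and 106 (6.40-fold higher), Cenpc, a centromere protein, at 49.2 and 307 (6.24-fold higher), and Pds5a, which regulates cohesin, at 10.02 and 49.8 (4.97-fold higher). Cdc27, a subunit of the anaphase-promoting complex, was 4.59-fold higher, the ubiquitin ligase scaffold Cul5 4.78-fold higher, and Cdk12, a kinase of RNA polymerase II, 4.94-fold higher. The zinc finger genes Zfp386 (76.4 and 505) and Zfp654 (16.2 and 92.1) were 6.61-fold and 5.68-fold higher, and Lrrc15, a leucine-rich repeat membrane protein, 6.59-fold higher at low signals, a log2 difference of 2.72 that came to 0.72 with normexp. Genes not well above background in hippocampal stem cells included Spag1, which helps assemble ciliary dynein (at least 8.51-fold higher), the stress-activated kinase Mapk13 (at least 7.82-fold), the growth factor Bmp3 (at least 6.71-fold) and the muscarinic receptor Chrm1 (at least 5.86-fold). With normexp none of these 4 reached 2-fold, at 0.85, 0.75, 0.44 and 0.60. Of the 61 higher genes with several probes measured on both arrays, 58 had every probe above 0 and 38 had every probe at 2-fold or more, and of 43 lower genes 42 and 24 had all probes on the lower side.

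Insulin and IGF signalling genes had 4 higher (14.8%, beside 4.16% of all genes) and 1 lower (3.7%, beside 7.0%) among 27, and 1 higher and 1 lower with normexp. Pik3r1, the regulatory subunit of PI3 kinase, was at 14.9 and 40.2 (2.70-fold higher), and Pde3b, a phosphodiesterase that insulin activates, at 19.2 and 43.6 (2.27-fold higher), with log2 differences of 0.69 and 0.70 under normexp. Igf1 had signals of 161 and 379.8 at its brightest probe and was 2.36-fold higher, but its probes ranged from -0.85 to 1.24 and their mean gave 0.12. Igfbp2 was 2.52-fold lower (100.5 and 39.9). The receptors differed little, with Insr at 4.38 and 3.78 and Igf1r at 123 and 122. Of the insulin genes, Ins1 was at 17.3 and 19.9 and Ins2 at 4.996 and 2.86 in hippocampal and bulb stem cells, and neither reached 2-fold; the paired genes are near-identical copies. Foxa3, Scg2 and Scg5 were the 3 lower genes of 26 insulin, granule and islet genes (11.5%, beside 7.0% of all genes), and 0 were higher. All 3 had a bulb signal not well above background. None of the 3 was lower under every scaling or with normexp. Isl1, an islet and forebrain transcription factor, had the highest value of this list, at 30.4 and 55.5, under 2-fold.

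Stem cell markers and regional patterning genes differed at few members. Of 21 neural stem and progenitor markers compared, Nfia, a gliogenic transcription factor, was 3.81-fold higher (13.1 and 49.9), and Hes1, a Notch target that keeps cells undifferentiated, 2.05-fold lower (12.3 and 6.01), a call that did not hold under every scaling. Nes, Pax6 (42.7 and 48.7) and the Id genes stayed under 2-fold. Among 9 hippocampal and cortical patterning genes, Zeb2 (263 and 1001, 3.80-fold) and Nr2f2, or COUP-TFII (20.2 and 55.2, 2.72-fold) were higher in bulb cells under every scaling, Nr2f2 not with normexp (0.84). Neurod2 was 2.13-fold lower, with a bulb signal not well above background, and this call was lost with spike-in scaling and with normexp. Of 12 ventral forebrain and olfactory bulb patterning genes, 0 were higher in bulb cells and 2 were lower (16.7%, beside 7.0% of all genes), neither under every scaling. These were Zic1, a regulator of bulb interneurons, at 8.19 and 2.78 (2.95-fold lower), and Th, the dopamine synthesis enzyme of bulb interneurons, at 6.32 and 3.04 (2.08-fold lower). Their log2 differences came to -0.70 and -0.19 with spike-in scaling, which gave 4 higher and 0 lower for the list, and to -0.69 and -0.66 with normexp. Dlx5, a factor of inhibitory interneurons, was at 520.2 and 629.8.

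Lists of matrix and growth control genes gave scattered calls. Of 21 extracellular matrix and integrin genes, Itga1, a collagen receptor subunit (2.80-fold), and Has2, which makes hyaluronan (2.60-fold), were higher under every scaling. In the same list 4 were lower, among them the galectin genes Lgals5 (3.54-fold), Lgals1 (2.38-fold) and Lgals3 (2.84-fold). The bulb signal of Lgals3 was not well above background, and Lgals1 and Lgals3 lost the call with normexp. Of 22 CDK inhibitor and p53 target genes Gadd45b (2.62-fold) and Plk2 (2.08-fold) were lower, and of 15 Notch pathway genes Dlk1 (2.18-fold) and Hes1, both lost with normexp. None of the lower calls in these 3 lists held under every scaling.

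Basic cell functions gave few calls. Of 24 cell cycle genes, 23 cholesterol synthesis genes, 13 Wnt pathway genes and 11 retinoic acid genes, 0 reached 2-fold in either direction. Ribosomal protein genes lay close together, with a list median of -0.71 over 63 genes and 57 of them below the median of all genes, but 0 reached 2-fold. The ribosomal median lay 0.28 below that of all genes. With normexp 2 ribosomal protein genes and 2 housekeeping genes were lower. Respiratory chain genes (2 lower of 42) had a median of -0.67, 0.24 below that of all genes, and housekeeping genes (0 called of 14) a median of -0.60, 0.17 below it, with Actb at 23381 and 15849 and Gapdh at 23013 and 13046. Under quantile normalization the medians of these 3 lists came to -0.03, -0.12 and -0.04, above the median of all genes of -0.26, and with spike-in scaling they were positive, so their direction is set by the scaling.

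Markers of other cell types varied from list to list, from a minority to all well above background, and their part in the differences above was not tested. The summed signals of these lists are to be read beside those of all genes, 1.13e+07 in hippocampal and 7.68e+06 in bulb stem cells. A sum is weighted toward the brightest members of a list. Of 20 microglia and macrophage markers 10 were well above background on each array. Their summed signal was 3550.3 in hippocampal and 2887 in bulb stem cells. Ctss was the single member of the list at 2-fold or more. Of 17 pericyte, fibroblast and smooth muscle markers 6 were above background on each, with sums of 1327 and 437, mostly S100a4 (1264 and 396, 3.19-fold lower). For 11 endothelial markers the sums were 549 and 311, with 5 above background on each, and for 9 ependymal and cilia genes 997 and 644, also with 5. Of 25 astrocyte markers 17 and 18 were above background with sums of 17924 and 13220.4; 4 were lower, Cd44 (3.50-fold), Cxcl14 (2.54-fold), Gja1 (2.05-fold) and Slc7a10 (at least 2.70-fold), none of them under every scaling and Gja1 and Slc7a10 not with normexp. All 16 olfactory ensheathing and Schwann cell markers were above background on both arrays, with sums of 18514 and 12232. Sox10 (14903 and 8860.2) made up most of both sums, and it is counted in the oligodendrocyte list below too. Neither Sox10 nor Ngfr (34.5 and 23.7) reached 2-fold. Of these 16, 2 were lower (12.5%, beside 7.0% of all genes), Npy and Aldh3a1, which are described above and lie in this list too, Npy under every scaling. Of 17 oligodendrocyte lineage and myelin genes 11 and 12 were well above background, with sums of 33099 and 23331, among them Olig1 (12983 and 9645), and 1 was lower, Mobp (2.07-fold), not under every scaling. In bulk RNA, fewer cells of a type and less RNA per cell cannot be told apart.

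Some marker levels on the arrays labelled as neurons went against that label. Tubb3, Dcx and Map2 were at 76.8, 26.5 and 16.8 in hippocampal and at 26.5, 16.3 and 19.7 in bulb neurons, and the vesicle protein gene Syp was at 1.74 and 1.93, so that none of the 4 was above the higher of the stem cell arrays. All 17 pericyte, fibroblast and smooth muscle markers were well above background there, with summed signals of 72983 and 104410, among them Col3a1 at 15066 and 23870.2, whereas this collagen gene was not above background in either kind of stem cell. The part of such cells in the neuron values was not tested.

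The pair of neuron arrays shares no array with the stem cell pair and shows in which genes bulb and hippocampal cells differed again. In neurons 536 of 7000 genes were higher (7.66%) and 560 lower (8.0%) in bulb cells. Of the 242 genes that were higher in bulb stem cells and compared in neurons, 22 were higher in bulb neurons too (9.09%) and 14 were lower. Of 396 lower genes, 60 were lower again (15.2%) and 36 were higher. Among the 50 compared genes that were 4-fold or more lower in bulb stem cells, 20 were also lower in bulb neurons and 5 higher, while of 39 at 4-fold or more higher 3 were higher again and 3 lower. The interferon list recurred most. Of 28 of its genes compared in neurons 0 were higher and 13 lower, the list median being -0.98, and 11 genes were lower in both pairs, among them Oas1a, Usp18, Oas1i, Rsad2, Irf7, Mx1 and Mx2. The summed signal of the list was 13281 in hippocampal and 3167 in bulb stem cells and 32319 and 15779 in the neurons made from them. Over all genes the sums were 1.13e+07, 7.68e+06, 6.85e+06 and 6.54e+06 in the same order. The neuron arrays lay on another slide, and slide and cell state cannot be told apart.

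**Figure D5:**
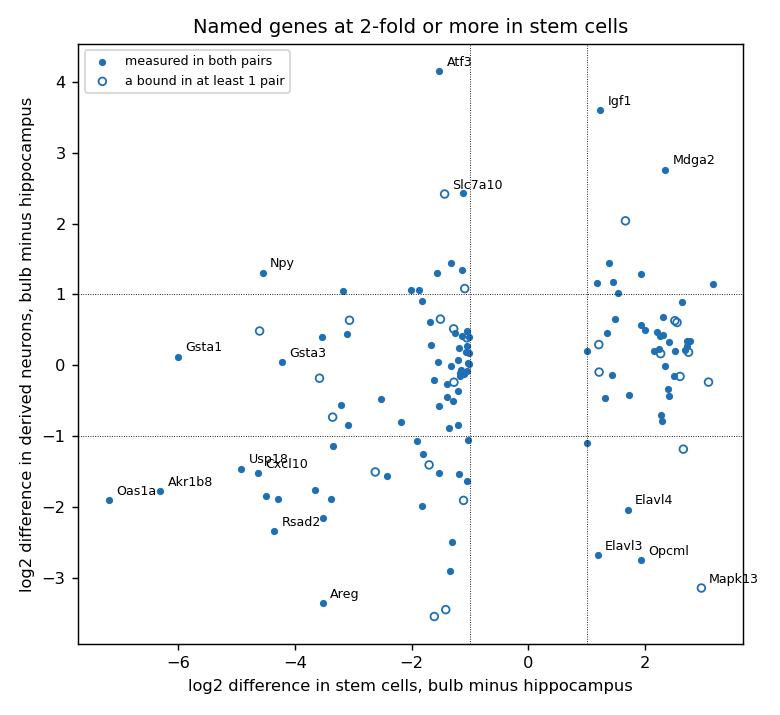
For 133 named genes at 2-fold or more between the stem cell arrays and compared in both pairs, the log2 difference (bulb minus hippocampus) in stem cells is on the horizontal axis and that in derived neurons on the vertical axis; open circles hold at least 1 bound and dotted lines mark 2-fold. Oas1a, Akr1b8, Rsad2 and Areg lie low on both axes, Gsta1 and Gsta3 lie near 0 in neurons, and Mdga2 and Igf1 (at its brightest probe) lie high on both.

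Outside the interferon list, Akr1b8, Nqo1, Areg, Cxcl10, Aldh3a1 and Trib3 were lower in bulb cells of both pairs, by 3.44-fold, 3.71-fold, 10.3-fold, 2.87-fold, 2.88-fold and 2.96-fold in neurons. Mdga2, Igf1, Zeb2, Nr2f2, Pde3b and Acvr2a were higher in both, by 6.80-fold, 12.1-fold, 2.45-fold, 2.26-fold, 2.24-fold and 2.03-fold in neurons. The stem cell calls of Nr2f2, Pde3b and Acvr2a were lost with normexp, at 0.84, 0.70 and 0.64. That of Igf1 was lost over the mean of its probes (0.12), and that of Aldh3a1 with spike-in scaling (-0.67). The glutathione transferases, the AMPA receptor genes, Dcx and Map2 did not reach 2-fold in neurons. Whether the 2 pairs differ was not tested.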

How the data were processed

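RNA mixed from 3 experiments per group was hybridised in 1 colour to 4 Agilent rat arrays, and the stem cell pair is analysed here. The deposited scanner files hold a background-subtracted intensity per spot, made with Agilent Feature Extraction 10.5.1.1 per the submitters' processing notes. The authors' deposited value table holds the same intensities, which differed by 0 from the scanner files. Probe annotation came from the file columns, with symbols updated through RefSeq accessions.

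Of 41012 non-control probes, 254 with outlier flags were left out. Of the 40758 kept, 10783 matched 1 gene symbol and 29975 none, and none matched several. Spots of a probe were averaged, the 75th percentile of each array was subtracted from its log2 intensity, and the probe of a gene with the highest mean signal stood for it, giving 8927 genes. Detection used the scanner's flag for signals well above background. Genes were compared where at least 1 stem cell array had this flag. No test was possible with 1 array per group, so a gene was called by size alone, at 2-fold. The scripts were checked on simulated arrays with known changes.

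Genes named are the 20 with the largest measured difference and the 10 with the largest bound in each direction, up to 8 genes of each list by size of difference, every interferon-induced gene described by role, and a set of insulin, neuronal and reference genes. Other genes were chosen after their values were seen. Some genes counted in the lists are not reported here by name. The comparison and all 36 lists were chosen with earlier results of these data known. Promoter sequences are those of RefSeq on GRCr8, with the first start listed for each gene. The alternatives tried were other scalings, normexp background correction with an offset of 50, other filters, the mean over probes, the authors' table and centring on the median of all genes, with centring added after seeing the data. Python 3.11.15 with numpy 2.4.6, pandas 2.3.3 and matplotlib 3.10.9, and R 4.3.3 with limma 3.58.1, were used.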

Additional observations from a re-analysis of the deposited data

Results flagged for a closer look

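For 17 genes the difference between bulb and hippocampus was 2-fold or more in stem cells and 2-fold or more the other way in the derived neurons. Each value rests on 1 array per group, the difference between the cell states was not tested, and all 17 pericyte, fibroblast and smooth muscle markers were well above background on the neuron arrays, against 6 on each stem cell array. Log2 differences (bulb minus hippocampus) are given for stem cells first and neurons after.

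Lower in bulb stem cells and higher in bulb neurons were the neuropeptide gene Npy (-4.55 and 1.31), the phospholipase gene Pla2g7 (-3.18 and 1.05), Ndrg1 (-2.01 and 1.06), the haem oxygenase gene Hmox1 (-1.87 and 1.07) and the patterning gene Zic1 (-1.56 and 1.30). Atf3, a stress-induced transcription factor, had the widest swing of this kind apart from Npy, at -1.52 and 4.15. Smaller stem cell differences belonged to the amino acid transporter gene Slc7a10 (-1.43, a bound, and 2.42), the IGF-binding protein gene Igfbp2 (-1.33 and 1.45), Dlk1 (-1.13 and 1.35), the peptide hormone gene Pthlh (-1.11 and 2.43) and Neurod2 (-1.09 and 1.08, both bounds).

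Higher in bulb stem cells and lower in bulb neurons were the netrin receptor gene Unc5c (1.01 and -1.10), the neuronal RNA-binding protein genes Elavl3 (1.19 and -2.68) and Elavl4 (1.70 and -2.04), the adhesion gene Opcml (1.94 and -2.76), Stpg1 (2.66, a bound, and -1.19) and the kinase gene Mapk13 (2.97 and -3.15, both bounds).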

How the results depend on the processing

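The direction of the 140 named genes called at 2-fold or more held under the alternatives that gave a value for them, except for Tnfrsf11b, whose difference was -0.026 with normexp background correction, and Ms4a2, whose difference was 0 with the mean over its probes. Counts moved more. Lower genes numbered 263 with the 75th percentile of probes above background on both arrays, 71 with spike-in scaling, 208 with normexp, 727 without a filter on dim probes and 148 after centring on the median of all genes, beside 422. Higher genes numbered 1129 with spike-in scaling, 133 with normexp and 512 after centring, beside 251. The median of all genes was -0.28 with the 75th percentile of probes above background on both arrays, -0.26 with quantile normalization and 0.43 with spike-in scaling. Of the 140 named genes, 88 kept their call with spike-in scaling and 91 with normexp, and 26 lower and 28 higher genes kept it in all 10 settings. Genes given as bounds had no value under the filter for both arrays, so they could not be among these. The authors' table holds the same intensities and could not change a call. Named genes called the same way in both pairs fell from 36 to 23 with spike-in scaling. The ventral forebrain and olfactory bulb patterning list had 1 higher and 1 lower gene with the 75th percentile of probes above background on both arrays, 4 and 0 with spike-in scaling, 2 and 1 after centring and 0 and 0 with normexp, beside 0 and 2. Of the named calls 48 were lost with normexp besides Tnfrsf11b and 52 with spike-in scaling. The cause of these shifts was not tested.

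No paired analysis was possible because each group has 1 array and the columns carry no replicate number. No array could be left out for the same reason. Precision is limited by having 1 array a group, and genes without the scanner's flag on 1 of the stem cell arrays give bounds only. The lowest flagged signal was 2.35 on the hippocampal and 1.60 on the bulb stem cell array. Signals without the flag can lie above these values. Spot errors do not cover the spread between cultures.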

Other observations

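Most probes of the array had no gene symbol here, and as a set they gave another balance of calls than the named probes. Of 16891 unnamed probes well above background on both stem cell arrays, 2051 were higher in bulb cells by 2-fold or more (12.1%) and 652 were lower (3.86%). Of 7080 named probes, 301 were higher (4.25%) and 390 lower (5.51%). The median difference was -0.22 over unnamed and -0.41 over named probes. What these transcripts are was not analysed here.

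Dim genes held most of the calls on both sides. With the 5663 measured genes split by mean signal into 3 classes of nearly equal size, the 1888 dimmest had 108 higher and 193 lower genes, the 1887 in the middle 74 and 80, and the 1888 brightest 32 and 65, with medians of -0.39, -0.39 and -0.54.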
